A study of Mus musculus with 20 samples.

Results

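The matrix metalloproteinases (MMPs) and their tissue inhibitors (TIMPs) were followed in kidney RNA of Alport mice left without active treatment, given anti-miR-21 or given an ACE inhibitor. The 10 genes were taken by symbol: Mmp2, Mmp3, Mmp7, Mmp9, Mmp12, Mmp13, Mmp14, Timp1, Timp2 and Timp3. They were 10 of the 47069 genes in the count table, and all 10 were among the 17622 genes that passed the filter on low counts. Mmp7 passed it through the Col4a3-/- groups, since the 5 wild-type kidneys held 2 Mmp7 counts in total.

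Total kidney RNA from 20 male mice of an F1 cross between 129SJ and C57Bl/6J was sequenced at 15 weeks of age. The WT group held 5 untreated wild-type littermates. The other 15 mice all lacked Col4a3, a collagen IV chain of the glomerular basement membrane, through a germline deletion, and their treatments began at 5 weeks of age. In the Veh group, 6 mice received weekly subcutaneous PBS. The Anti-miR-21 group of 6 mice received lademirsen, an oligonucleotide that inhibits microRNA-21 (miR-21), subcutaneously at 50 mg/kg each week. The ACEi group of 3 mice drank ramipril, an angiotensin-converting enzyme inhibitor, at 11 mg/L of drinking water and received weekly PBS, while the deposited library table gives their ramipril as 4 mg/kg. Each sample carries its own mouse name, and these names are used below. The mouse numbers did not pair mice across groups.

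Each kidney gave between 28474301 and 29479629 gene counts. Col4a3 lay between 194 and 237 CPM (counts scaled to library size and composition) in WT mice and between 27.9 and 74.8 CPM in the Col4a3-/- mice, with no overlap. All 6 proximal tubule markers tested were found at high level, summing to at least 1346 CPM in every mouse, although the extraction label names adipose tissue. Adipocyte markers passed 100 CPM in 4 mice, which were A1 with 409.9 CPM, A4 with 366 CPM and A9 with 351 CPM in the Veh group and A12 with 224 CPM in the Anti-miR-21 group. Calls lost without those 4 mice are given beside the genes they concern. Libraries were run on flow cells A (13 mice) and B (7 mice).

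MMPs are zinc endopeptidases, most of them secreted as inactive zymogens, that cleave collagens, laminin, elastin, adhesion molecules and growth factor precursors. TIMPs bind the active site of these enzymes, and the balance between enzyme and inhibitor helps to set the turnover of extracellular matrix. In the kidney the family is known from glomerular basement membrane damage, tubular injury and interstitial fibrosis. Transcripts do not report zymogen activation or inhibitor binding, and in whole kidney a change in the number of cells of a type and a change in RNA per cell cannot be told apart.

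In Veh compared to WT kidneys, all 7 MMPs and Timp1 and Timp2 rose, while Timp3 fell. With either treatment Timp3 rose and most of the other members fell relative to Veh. Timp3, by far the most abundant inhibitor transcript in WT kidneys, gave way to a mixed population of Timp1, Timp2 and Timp3 in Veh kidneys. Mmp9 was the 1 member whose level differed between Anti-miR-21 and ACEi mice by the test. Log2 fold changes are given with their standard error (SE) and with an adjusted p from edgeR's quasi-likelihood test with Benjamini-Hochberg adjustment over all genes tested. A gene was called changed at an adjusted p below 0.05.

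**Figure D1:**
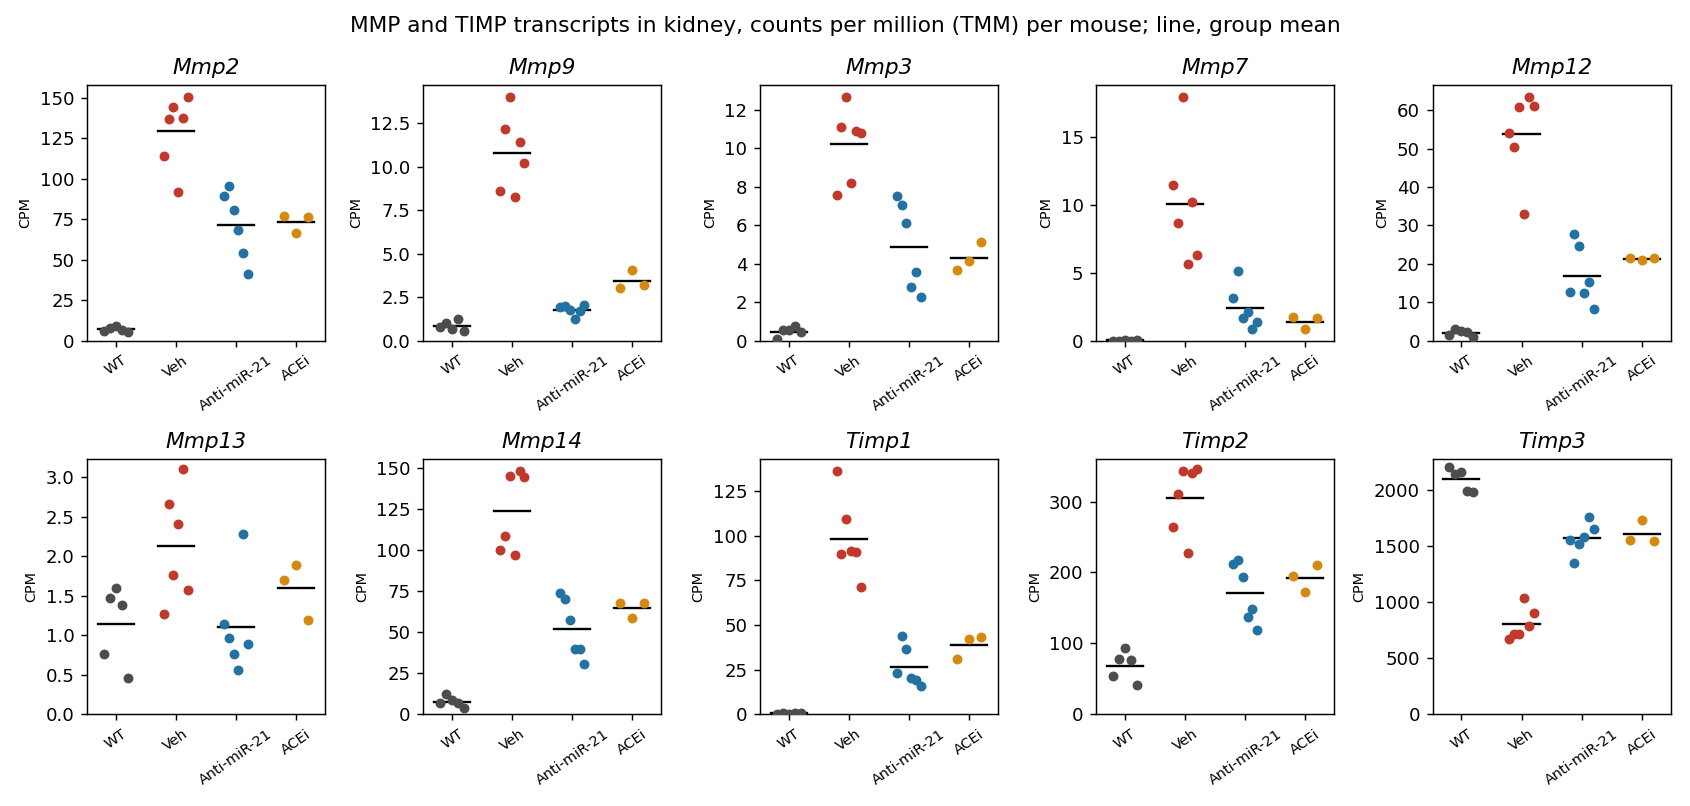
Level of each of the 10 genes in every mouse, in scaled CPM, by group (WT, Veh, Anti-miR-21, ACEi). Each point is a mouse and the line is the group mean. The Veh points of Mmp2 (91.7 to 151 CPM) and Timp1 (71.0 to 136 CPM) lie far above WT, whereas those of Timp3 (672 to 1042 CPM) lie below it.

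Mmp2 encodes gelatinase A, a secreted enzyme that degrades denatured collagen and collagen IV and is made largely by mesenchymal cells. Mmp2 stood at 5.61, 7.67, 8.91, 6.62 and 5.33 CPM in the 5 WT mice. In Veh mice it ranged from 91.7 in A16 through a median of 137 to 151 CPM in A20, in Anti-miR-21 mice from 40.8 in A22 through 74.5 to 95.7 CPM in A8, and in ACEi mice it was 77.2, 66.1 and 76.2 CPM. Every Col4a3-/- mouse lay above every WT mouse, the 3 ACEi mice lay below every Veh mouse, and Anti-miR-21 mouse A8 overlapped Veh mouse A16. Mmp2 was 18.9-fold higher in Veh than in WT mice (log2 4.24 ± 0.22, SE, adjusted p = 3.02e-12, edgeR). It was lower than in Veh with Anti-miR-21 (log2 −0.85 ± 0.17, adjusted p = 0.000266, edgeR) and with ACEi (log2 −0.82 ± 0.22, adjusted p = 0.00528, edgeR).

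Mmp9 encodes gelatinase B, an inducible enzyme stored by neutrophils and also made by macrophages and epithelium. Its levels in WT mice were 0.802, 1.03, 0.676, 1.23 and 0.545 CPM. Veh mice held 8.27 (A16) to 14.02 CPM (A9) with a median of 10.8 CPM. Anti-miR-21 mice held 1.24 (A12) to 2.02 CPM (A22) with a median of 1.86 CPM, and the ACEi mice 3.02, 4.04 and 3.17 CPM. The 4 groups formed 4 separate ranges, in the order WT, Anti-miR-21, ACEi and Veh. Mmp9 was 12.5-fold higher in Veh than in WT mice (log2 3.65 ± 0.21, adjusted p = 8.96e-12, edgeR). It fell with Anti-miR-21 (log2 −2.60 ± 0.18, adjusted p = 1.33e-08, edgeR) and with ACEi (log2 −1.66 ± 0.22, adjusted p = 1.74e-05, edgeR). The fall with Anti-miR-21 was the largest of the 10 genes on the fitted log2 scale. Summed neutrophil markers never exceeded 2.43 CPM. Over all 20 mice, S100a9 held 330 counts, S100a8 220, Retnlg 56, Ly6g 17, Mpo 11 and Elane 9. Which cells held the Mmp9 transcript was not tested.

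Mmp3, Mmp7, Mmp12 and Mmp13 lie in the MMP cluster of mouse chromosome 9 and encode secreted enzymes. Mmp3 encodes stromelysin-1, a broad enzyme that also activates other pro-MMPs. It stood at 0.0891, 0.533, 0.549, 0.736 and 0.419 CPM in WT mice, at 7.57 (A1) to 12.7 CPM (A9) with a median of 10.9 CPM in Veh mice, at 2.29 (A22) to 7.54 CPM (A2) with a median of 4.84 CPM in Anti-miR-21 mice and at 3.67, 4.15 and 5.11 CPM in ACEi mice. Veh exceeded every other group without overlap, with Veh mouse A1 and Anti-miR-21 mouse A2 as the nearest pair. Mmp3 was 21.6-fold higher in Veh than in WT mice (log2 4.43 ± 0.37, adjusted p = 1.41e-09, edgeR), and lower with Anti-miR-21 (log2 −1.06 ± 0.27, adjusted p = 0.00226, edgeR) and ACEi (log2 −1.25 ± 0.35, adjusted p = 0.00789, edgeR).

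Mmp7 encodes matrilysin, a small epithelial protease that sheds E-cadherin and other surface proteins and is scarce in healthy tubules. WT mice held 0, 0, 0.0422, 0 and 0.0419 CPM, which were 2 counts among 5 kidneys. Veh mice ranged from 5.61 CPM (A16) through a median of 9.43 to 17.9 CPM (A9), Anti-miR-21 mice from 0.849 (A15) through 1.86 to 5.12 CPM (A8), and ACEi mice stood at 1.705, 0.859 and 1.63 CPM. The highest treated mouse, A8, lay just below the lowest Veh mouse. The 2139 Veh counts gave a ratio to WT of 600.0 with an exact 95% interval from 166 to 4958, which covers counting error only. The ratio to WT was 144 (39.7 to 1195) in Anti-miR-21 and 83.9 (22.7 to 701) in ACEi mice. Compared to Veh, Mmp7 fell with Anti-miR-21 (log2 −2.07 ± 0.35, adjusted p = 4.76e-05, edgeR) and with ACEi (log2 −2.83 ± 0.49, adjusted p = 0.000164, edgeR). No test of Mmp7 against WT is given, because its filter rested on the Col4a3-/- groups. Relative to its mean, Mmp7 was the most uneven of the 7 MMPs among Veh mice, with a mean of 10.0 ± 4.46 CPM (SD, n = 6).

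Mmp12 encodes macrophage elastase. It stood at 1.38, 3.12, 2.36, 2.25 and 0.923 CPM in WT mice and at 33.0 (A16) to 63.5 CPM (A19) with a median of 57.4 CPM in Veh mice. Anti-miR-21 mice held 8.29 (A22) to 27.9 CPM (A8) with a median of 13.9 CPM, and the 3 ACEi mice were tightly grouped at 21.5, 20.96 and 21.4 CPM. All 3 Col4a3-/- groups were above WT and both treated groups were below Veh without overlap. Mmp12 was 26.7-fold higher in Veh than in WT mice (log2 4.74 ± 0.33, adjusted p = 1.18e-10, edgeR). It fell with Anti-miR-21 (log2 −1.68 ± 0.25, adjusted p = 9.66e-06, edgeR) and with ACEi (log2 −1.34 ± 0.31, adjusted p = 0.00227, edgeR).

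Mmp13 encodes collagenase-3, the main interstitial collagenase of rodents. It was the weakest of the 7 MMPs in the disease comparison, with WT values of 0.757, 1.48, 1.60, 1.39 and 0.461 CPM and Veh values of 1.27 (A1) to 3.10 CPM (A19) with a median of 2.08 CPM. Anti-miR-21 mice held 0.562 (A12) to 2.29 CPM (A15) with a median of 0.931 CPM, and ACEi mice 1.705, 1.90 and 1.19 CPM. The 4 groups overlapped. The difference between Veh and WT was 1.87-fold (log2 0.90 ± 0.35, adjusted p = 0.0259, edgeR). It was no longer called within flow cell A (log2 0.78, adjusted p = 0.136, edgeR) or B (log2 1.10, adjusted p = 0.123, edgeR), nor without WT mouse A3 (adjusted p = 0.0663, edgeR) or A18 (0.0736), or Veh mouse A4 (0.0511) or A19 (0.0635). Mmp13 was lower in Anti-miR-21 than in Veh mice (log2 −0.95 ± 0.33, adjusted p = 0.0175, edgeR), a call lost without A19 (adjusted p = 0.0533, edgeR), within flow cell A (0.0580) and without the 4 mice high in adipocyte markers (0.0579). With ACEi the difference from Veh was −0.42 on the log2 scale with a 95% interval from −1.25 to 0.42 (adjusted p = 0.429, edgeR).

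Mmp14 encodes MT1-MMP, a membrane-anchored enzyme that cleaves fibrillar collagen and, together with TIMP-2, activates pro-MMP-2 at the cell surface. Mmp14 stood at 6.72, 12.3, 8.40, 7.03 and 3.77 CPM in WT mice, at 97.1 (A16) to 148 CPM (A19) with a median of 126 CPM in Veh mice and at 30.4 (A22) to 73.6 CPM (A2) with a median of 48.7 CPM in Anti-miR-21 mice. The ACEi mice held 68.0, 58.3 and 67.7 CPM, within the Anti-miR-21 range and below every Veh mouse. Mmp14 was 16.2-fold higher in Veh than in WT mice (log2 4.01 ± 0.28, adjusted p = 1e-10, edgeR). It fell with Anti-miR-21 (log2 −1.26 ± 0.22, adjusted p = 7.21e-05, edgeR) and with ACEi (log2 −0.94 ± 0.28, adjusted p = 0.0117, edgeR), the latter call being lost without ACEi mouse A13 (adjusted p = 0.0626, edgeR).

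Among the inhibitors, Timp1 encodes the secreted, injury-inducible TIMP-1. Timp1 was close to absent in WT kidneys, at 0.267, 0.943, 0.380, 0.613 and 0.755 CPM. In Veh mice it ranged from 71.0 (A20) through a median of 91.1 to 136 CPM (A1), in Anti-miR-21 mice from 15.9 (A22) through 21.5 to 43.8 CPM (A8), and in ACEi mice it was 30.9, 42.2 and 43.3 CPM. No Veh mouse overlapped a mouse of another group. The 163-fold rise in Veh over WT (log2 7.35 ± 0.35, adjusted p = 1.31e-12, edgeR) was the largest among the 9 members with more than 2 WT counts. Timp1 fell with Anti-miR-21 (log2 −1.89 ± 0.22, adjusted p = 5.26e-07, edgeR) and ACEi (log2 −1.34 ± 0.28, adjusted p = 0.000786, edgeR).

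Timp2 encodes the broadly made TIMP-2, which also serves as the adaptor for pro-MMP-2 activation. Its WT levels were 54.6, 77.3, 93.1, 76.9 and 41.2 CPM. Veh mice held 228 (A16) to 345 CPM (A20) with a median of 326 CPM, Anti-miR-21 mice 119 (A22) to 217 CPM (A8) with a median of 172 CPM, and ACEi mice 195, 172 and 211.1 CPM. The WT, treated and Veh mice formed 3 separate ranges. Timp2 was 4.45-fold higher in Veh than in WT mice (log2 2.15 ± 0.20, adjusted p = 4.92e-09, edgeR) and fell with Anti-miR-21 (log2 −0.83 ± 0.18, adjusted p = 0.000464, edgeR). The fall with ACEi (log2 −0.67 ± 0.22, adjusted p = 0.0224, edgeR) was not called without ACEi mouse A11 (adjusted p = 0.0643, edgeR), without A13 (0.108) or without the 4 mice high in adipocyte markers (0.0895).

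Timp3 encodes TIMP-3, the inhibitor that binds to the extracellular matrix and also blocks the sheddase ADAM17. It was the member that moved the other way. WT mice held 2204, 2140.1, 2162, 1993 and 1982 CPM, and Veh mice 672 (A1) to 1042 CPM (A16) with a median of 752 CPM. Anti-miR-21 mice held 1353 (A8) to 1757 CPM (A15) with a median of 1571 CPM, and the ACEi mice 1552, 1732 and 1549 CPM. The treated mice filled the gap between Veh and WT and touched neither. Timp3 fell in Veh to 0.384 of its WT level (log2 −1.38 ± 0.10, adjusted p = 2.69e-10, edgeR), and it was 1.95-fold higher than in Veh with Anti-miR-21 (log2 0.96 ± 0.10, adjusted p = 1.35e-07, edgeR) and higher with ACEi (log2 1.0 ± 0.12, adjusted p = 1.17e-05, edgeR). Syn3 is annotated on the opposite strand and shares 1733 of the 8144 exon bases of Timp3, and Syn3 itself reached no more than 18.5 CPM in any mouse. Whether counting used the strand is not stated, and for Mmp12 and Mmp7, which share 157 and 123 exon bases with the opposite genes Mmp1b and AV064505, those partners did not exceed 0.0562 CPM.

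In Veh compared to WT, 9 of the 10 members were called higher, Mmp7 among them with its direction set by the filter, and 1 lower, where 39% of all genes tested were called higher and 34% lower. The members' median log2 difference was 4.13, against 0.07 over all genes tested, and the median was the same with Mmp7 set at the lower end of its counting interval. For 9 of the 10 members the Veh and WT mice did not overlap, as held for 54.9% of all genes tested. In Anti-miR-21 compared to Veh, 1 member was called higher and 9 lower, with a median of −1.16 against −0.04 over all genes, where 28.8% of genes were called higher and 30.5% lower. In ACEi compared to Veh, 1 was called higher and 8 lower, with a median of −1.09 against −0.05, where 21% of genes were called higher and 19.1% lower. The mice did not overlap for 8 and 9 members in these comparisons, and for 36.4% and 38.6% of all genes. All comparisons with Veh share the same 6 Veh mice.

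**Figure D2:**
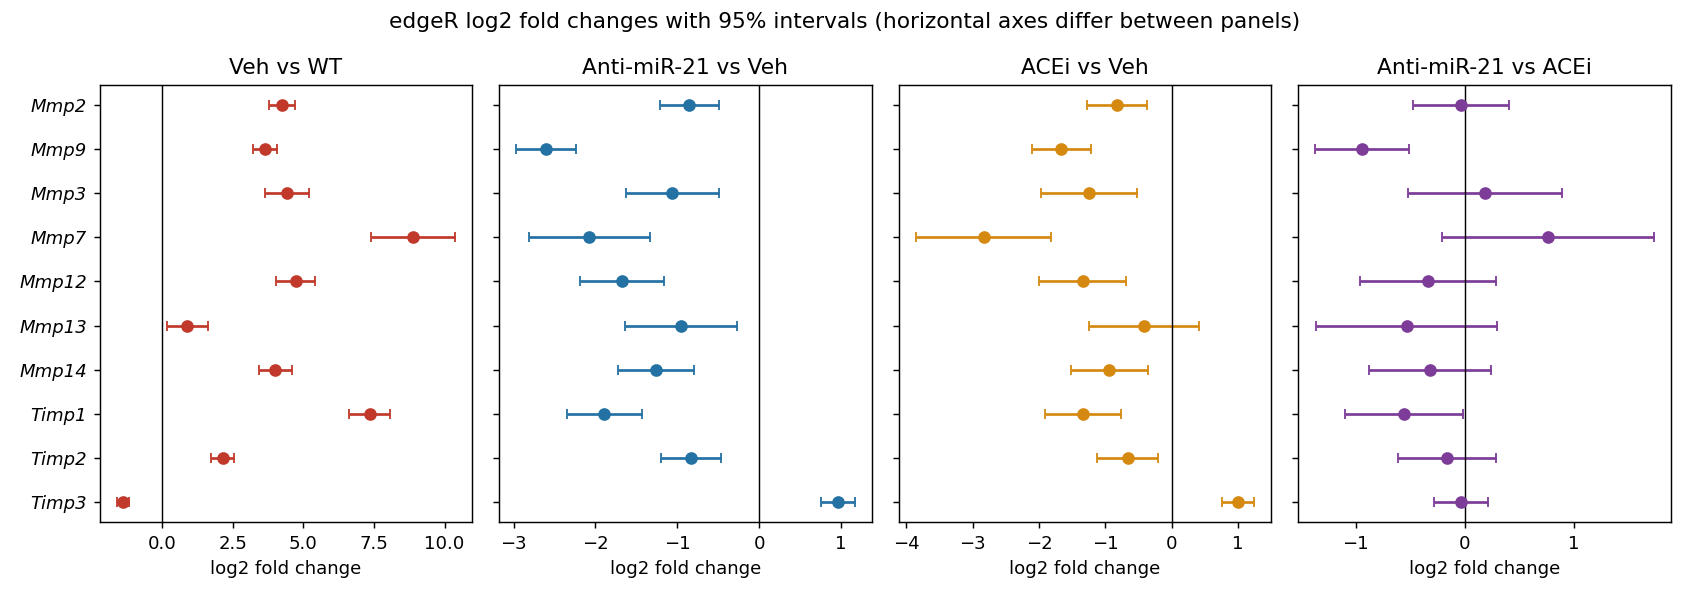
Log2 fold change of each of the 10 genes with its 95% interval in Veh compared to WT, Anti-miR-21 compared to Veh, ACEi compared to Veh, and Anti-miR-21 compared to ACEi. Timp3 stands apart at −1.38 in Veh compared to WT. The Mmp7 point in that comparison rests on 2 WT counts, and the filter set its direction. Mmp9 is the member called at an adjusted p below 0.05 in Anti-miR-21 compared to ACEi.

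The directions of the calls in these 3 comparisons held under the other scalings of the libraries, although the scaling moved the whole distribution. With library totals alone the median of all genes in Veh compared to WT shifted by 0.58 on the log2 scale, and 11623 genes were called higher and 2684 lower in place of 6869 and 5998. Under that scaling Timp3 was −0.80 in Veh compared to WT while the median of all genes was 0.65. For Anti-miR-21 compared to Veh the split went from 5073 higher and 5367 lower to 2459 and 9861 with library totals alone, and the median shifted by −0.34. For ACEi compared to Veh it went from 3704 and 3370 to 1907 and 7389, with a shift of −0.27, and to 3063 and 4317 with upper-quartile scaling. Within flow cell A, 9 members were called in Veh compared to WT and 9 in Anti-miR-21 compared to Veh, and within flow cell B 9 in Veh compared to WT. Mmp13 was the uncalled member each time. Of all genes tested in those fits, 36.2%, 28.2% and 27.5% were called higher and 32.1%, 28.5% and 25.4% lower.

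Within flow cell B, which held 2 of the 3 ACEi mice, 4 members were called in ACEi compared to Veh, 1 higher and 3 lower, where 6.64% of the 16993 genes tested there were called higher and 2.41% lower. These were Timp3 (log2 0.78, adjusted p = 0.0338, edgeR), Timp1 (−1.12, 0.0244), Mmp3 (−1.26, 0.0392) and Mmp7 (−2.18, 0.0303). Mmp2 (−0.73, adjusted p = 0.0929, edgeR), Mmp9 (−1.36, 0.0536), Mmp12 (−1.12, 0.0852), Mmp14 (−0.91, 0.0814) and Timp2 (−0.62, 0.230) had the same direction without a call.

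The start sites of the chromosome 9 proteases are shown because AP-1, the Jun/Fos factor classically tied to inducible MMP promoters, has a fixed recognition word that can be looked for by letter. Promoters of 8 of the 10 members were matched in RefSeq (GRCm38.p6), each from 250 bases before the start to 50 after it, with no entry matched for Mmp2 and Mmp9. The AP-1 letters TGACTCA, or TGAGTCA on the other strand, are in capitals in the 100 bases before each start that holds them.
Mmp13, chr9:7272414-7272513, plus strand: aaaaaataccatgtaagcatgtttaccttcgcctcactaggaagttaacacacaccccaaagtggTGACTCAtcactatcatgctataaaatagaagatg
Mmp12, second start, chr9:7347274-7347373, plus strand: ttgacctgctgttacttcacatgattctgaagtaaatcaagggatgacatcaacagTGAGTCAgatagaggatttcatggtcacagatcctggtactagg
Mmp3, chr9:7445722-7445821, plus strand: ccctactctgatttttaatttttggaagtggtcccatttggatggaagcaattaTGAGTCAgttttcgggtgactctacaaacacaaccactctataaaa
Mmp7, first start, chr9:7691990-7692089, plus strand: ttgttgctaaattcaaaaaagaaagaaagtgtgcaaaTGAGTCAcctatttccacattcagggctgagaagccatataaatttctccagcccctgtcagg

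The first AP-1 base lay 35 bases before the start in Mmp13, 44 in Mmp12, 46 in Mmp3 and 63 in Mmp7. The same letters were in 1.88% of the 32851 RefSeq promoters within the last 100 bases and in 5.2% within the 300 bases. The windows of the first Mmp12 start and the second Mmp7 start did not hold the AP-1 letters. The AP-1 letters were also in none of the windows of Mmp14, Timp1, Timp2 and Timp3. Those 4 windows instead held the GC box letters GGGCGG or CCGCCC, present in 35.7% of all promoters and in none of the windows of the chromosome 9 proteases. The 4 proteases with the AP-1 letters did not move alike, since Mmp13 differed by 0.90 between Veh and WT on the log2 scale while Mmp3 and Mmp12 differed by 4.43 and 4.74. A match is a description of letters and no evidence of binding.

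**Figure D3:**
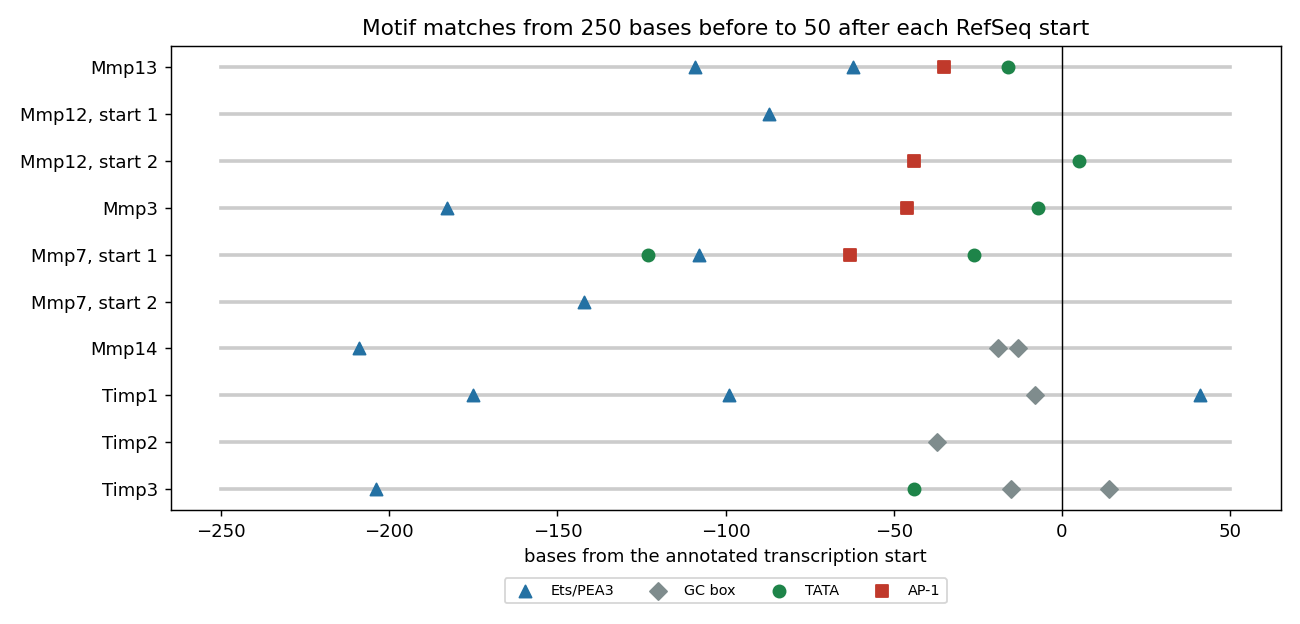
Places of the AP-1, Ets/PEA3, TATA and GC box letters along the RefSeq promoter windows of 8 members, in bases from the start site. AP-1 marks are found in Mmp13, the second Mmp12 start, Mmp3 and the first Mmp7 start, the nearest at 35 bases before the start. GC box marks are found in Mmp14, Timp1, Timp2 and Timp3.

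To compare levels between genes, values per transcript length are needed, and the deposited FPKM (fragments per kilobase of transcript, scaled to library size) were used for this, as ratios within each mouse. In WT kidneys Timp3 led with a mean of 369 FPKM, followed by Timp2 with 15.7 FPKM, and these neighbours did not overlap. Mmp14 (2.43 FPKM) and Mmp2 (1.86 FPKM) came next and overlapped each other. The other 6 genes averaged below 1 FPKM. In Veh kidneys the ranges of Timp3 (181 to 254 FPKM) and Timp1 (102 to 194 FPKM) met, and Timp1 overlapped Timp2 (72.0 to 121 FPKM). Mmp14 and Mmp2 followed at 59.6 and 53.3 FPKM, then Mmp12 at 18.8, Mmp7 at 12.2, Mmp3 at 7.11 and Mmp9 at 4.25 FPKM, while Mmp13 stayed at 0.993 FPKM. By FPKM, Mmp7 thus moved from the lowest rank of the 10 in WT to the seventh in Veh kidneys. Ranks between genes depend on the lengths behind the FPKM.

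The makeup of the inhibitor transcripts differed between Veh and WT mice. Timp3 held 95.8% ± 1.12 (SD, n = 5) of the summed FPKM of the 3 TIMPs in WT mice and 46.7% ± 6.94 (SD, n = 6) in Veh mice, with ranges of 94.6 to 97.2% and 38.7 to 57.2%. Timp1 held 0.149% ± 0.0731 in WT and 30.2% ± 6.74 in Veh mice, and Timp2 4.04% ± 1.13 and 23.1% ± 4.12. Timp3 held 81.2% ± 5.72 (SD, n = 6) with Anti-miR-21 and 78.0% ± 2.15 (SD, n = 3) with ACEi, ranges that lay between those of WT and Veh and overlapped each other. The 3 TIMPs summed to a mean of 385 FPKM in WT, 458 in Veh, 405 in Anti-miR-21 and 453 in ACEi mice, and the 7 MMPs to 5.55, 156, 54.0 and 62.3 FPKM. The summed TIMP level depended on the measure, since FPKM are per length and follow library totals. In CPM scaled for composition, which is not per length, it was 2165 ± 111 in WT and 1209 ± 113 in Veh mice, and 1770.1 ± 101 and 1843 ± 90.9 in the treated groups. The FPKM and CPM sums differ in both length weighting and scaling, and the part played by each was not tested. The ratios within a mouse do not depend on the scaling. TIMP per MMP transcript, the ratio of those sums in each mouse, was 75.4 ± 23.5 in WT and 3.04 ± 0.685 in Veh mice. It was 8.41 ± 2.96 in Anti-miR-21 mice and 7.34 ± 0.950 in ACEi mice, above every Veh mouse (at most 4.28) and below every WT mouse (at least 51.3). These ratios concern transcripts only, and inhibitor protein or activity was not measured in these data.

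**Figure D4:**
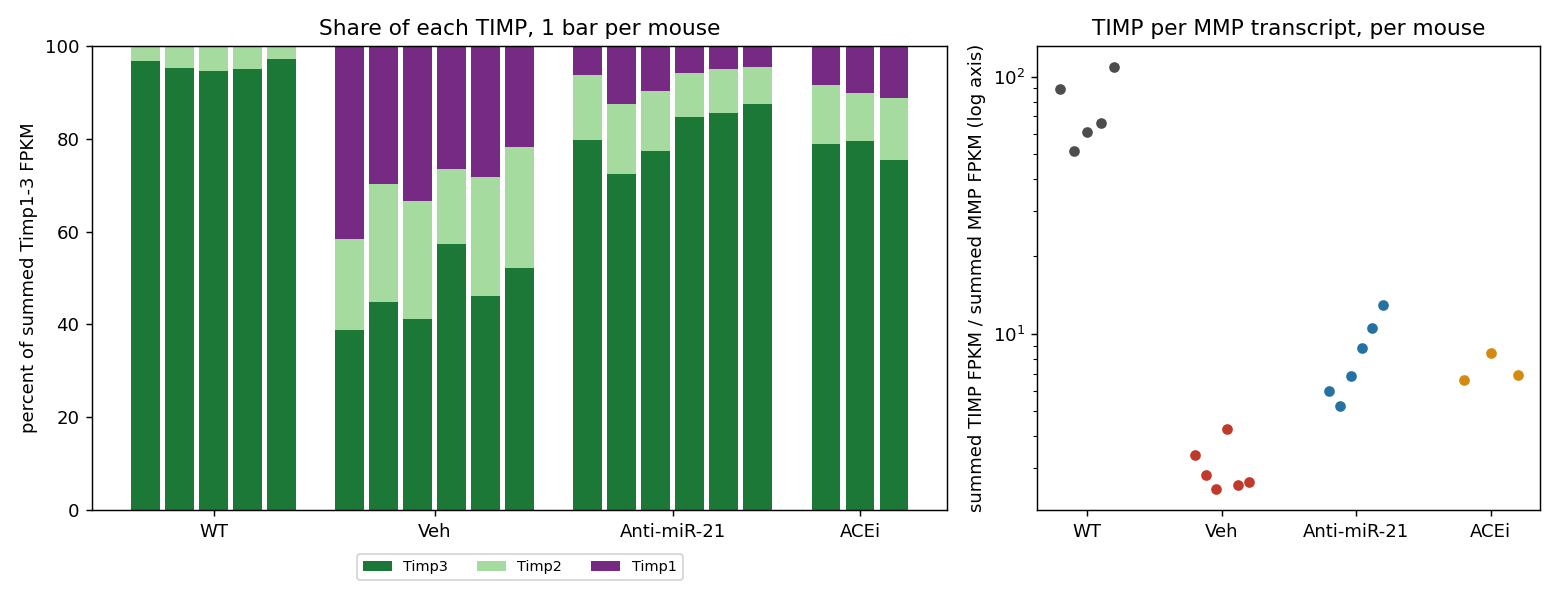
Share of Timp1, Timp2 and Timp3 in the summed FPKM of the 3 inhibitors in each mouse, in percent, by group. Timp3 takes 94.6 to 97.2% in WT mice and 38.7 to 57.2% in Veh mice, with the treated mice between them.

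The length used for Timp1 is not given in the deposited annotation, so the shares were also computed from counts per kilobase of GENCODE exons, a choice made after seeing the data. Timp3 then held 93.4% in WT, 34.5% ± 6.40 in Veh, 72.5% in Anti-miR-21 and 68.0% in ACEi mice, and in Veh mice Timp1 (38.2% ± 7.29) stood above Timp3 on average. The TIMP per MMP ratio was 64.7, 3.48, 7.66 and 7.18 in the same order. The rank of Timp1 and Timp3 in Veh kidneys therefore depends on the lengths used, and the fall in the Timp3 share does not.

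The pro-MMP-2 activation trio kept a different makeup in disease. Per Timp2 FPKM, Mmp2 was 0.122 ± 0.0191 in WT and 0.503 ± 0.0197 in Veh mice, and remained at 0.492 ± 0.0654 with Anti-miR-21 and 0.454 ± 0.0211 with ACEi. Mmp14 per Timp2 was 0.153 ± 0.0439 in WT and 0.562 ± 0.0473 in Veh mice, and 0.410 ± 0.0471 and 0.467 ± 0.0204 in the treated groups. In both ratios the 15 Col4a3-/- mice lay above the WT mice. Among the 7 MMPs, Mmp14 and Mmp2 together made up most of the summed FPKM in every group, with Mmp14 at 42.7% and Mmp2 at 34.8% in WT mice and at 38.1% and 34.2% in Veh mice. The length of Mmp14 was 2597 bases in the deposited annotation and 5960 in GENCODE, against 3041 and 3371 for Mmp2. The order of Mmp14 and Mmp2 therefore depends on the lengths used. Mmp7 went from 0.360% to 7.73%, and Mmp13 from 6.13% to 0.659%.

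The direct comparison of the treatments asked whether the members differed between Anti-miR-21 and ACEi mice. Of the 10 members, 0 were called higher and 1 lower in Anti-miR-21, where 0.363% of all genes were called higher and 0.221% lower. Mmp9 was the called gene, at 1.77 ± 0.292 CPM (SD, n = 6) against 3.41 ± 0.554 CPM (SD, n = 3), a log2 difference of −0.94 ± 0.21 with a 95% interval from −1.37 to −0.51 (adjusted p = 0.0406, edgeR). At an unadjusted p below 0.05 the edgeR counts were 0 higher and 2 lower (Mmp9 and Timp1). Over all 17622 genes tested, 2562 passed that threshold in either direction. DESeq2 called 0 members higher and 1 lower, with no share over all genes taken. The 2 groups did not overlap for Mmp9, which held for 1 of the 10 members and 8.99% of all genes. The call was near its threshold. It was lost without the 4 mice high in adipocyte markers (adjusted p = 0.0800, edgeR), with no filter on low counts (0.0528) and with limma on log2(FPKM + 1) or log2(FPKM + 0.1) (0.106 and 0.0610). It was also lost when any of the 9 mice but A8 was left out (adjusted p = 0.0531 to 0.190, edgeR, for those 8 mice, and 0.0350 without A8), with library totals alone (0.0551) and with flow cell as a term (0.0521), while the difference stayed between −0.80 and −1.02 in the leave-out fits.

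For the other 9 members the intervals show what the 3 ACEi mice could resolve. Timp1 was lower in Anti-miR-21 by −0.55 on the log2 scale, with a 95% interval from −1.09 to −0.01 (adjusted p = 0.331, edgeR). The intervals ran from −0.47 to 0.40 for Mmp2, from −0.62 to 0.28 for Timp2 and from −0.28 to 0.21 for Timp3. They were wider for Mmp14 (−0.88 to 0.24), Mmp12 (−0.96 to 0.28), Mmp3 (−0.52 to 0.89), Mmp13 (−1.36 to 0.30) and Mmp7 (−0.21 to 1.73). The median difference of the members was −0.24 against 0.01 over all genes. None of these 9 intervals shows that the treatments acted alike.

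Relative to WT, both treated groups remained changed. In Anti-miR-21 compared to WT, 8 members (Mmp7 again by its filter) were called higher and 1 lower, where 23.9% of all genes were called higher and 19.8% lower, and Mmp13 was not called (log2 −0.05, 95% interval −0.79 to 0.70). In ACEi compared to WT the counts were also 8 and 1, where 25.2% and 22.5% of all genes were called, and Mmp13 was again not called (log2 0.49, 95% interval −0.38 to 1.35). In each comparison 9 members did not overlap, as did 23.8% and 46.1% of all genes. Mmp9 differed least among the 8 higher members in Anti-miR-21 mice (log2 1.05 ± 0.21, adjusted p = 0.000436, edgeR), and was at 1.99 ± 0.23 with ACEi (adjusted p = 7.30e-07, edgeR). Timp1 was furthest from WT among the members other than Mmp7, at log2 5.46 ± 0.35 with Anti-miR-21 (adjusted p = 4.16e-10, edgeR) and 6.01 ± 0.37 with ACEi (adjusted p = 1.96e-10, edgeR).

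The deficit of Timp3 relative to WT depended on scaling. It was −0.41 ± 0.10 with Anti-miR-21 (adjusted p = 0.00275, edgeR) and −0.38 ± 0.12 with ACEi (adjusted p = 0.0165, edgeR). With library totals alone it was −0.17 (adjusted p = 0.0871, edgeR) and −0.07 (adjusted p = 0.589, edgeR), and the split of all calls went from 4203 higher and 3496 lower to 7719 and 998, and from 4432 and 3973 to 8006 and 1345. The medians of all genes shifted by 0.24 and 0.31 under that scaling. With ACEi the call was also lost without A11 (adjusted p = 0.0680, edgeR), without A23 (0.0695) and within flow cell B (−0.25, 0.267).

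How far a treated mouse had moved from Veh towards WT was expressed for each gene as a percent, with the mean log2 CPM of Veh mice at 0 and that of WT mice at 100. It is a description, since all genes share the same Veh and WT mice. Timp3 had covered 70.0% ± 9.11 (SD, n = 6) with Anti-miR-21 and 72.7% ± 6.62 (SD, n = 3) with ACEi. Mmp9 had covered 71.2% ± 7.08 and 45.5% ± 6.2, with mice at 65.8 to 84.6% and at 38.4 to 50.0%. The other induced genes had covered less, in overlapping ranges. Timp2 stood at 38.8% ± 16.5 and 29.8% ± 6.81, Mmp12 at 36.9% ± 13.8 and 27.2% ± 0.431, and Mmp14 at 32.0% ± 12.6 and 22.5% ± 3.09. Mmp3 (26.6% ± 16.4 and 27.6% ± 5.35), Timp1 (26.9% ± 7.81 and 18.1% ± 3.70) and Mmp2 (21.1% ± 11.1 and 18.96% ± 2.94) were in the same range. Anti-miR-21 mouse A22 was nearest to WT for Timp1, Timp2, Mmp2, Mmp3, Mmp12 and Mmp14, and A8 or A2 was farthest from it. Mmp7 and Mmp13 are left out here because their WT level or their WT to Veh distance was too small.

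**Figure D5:**
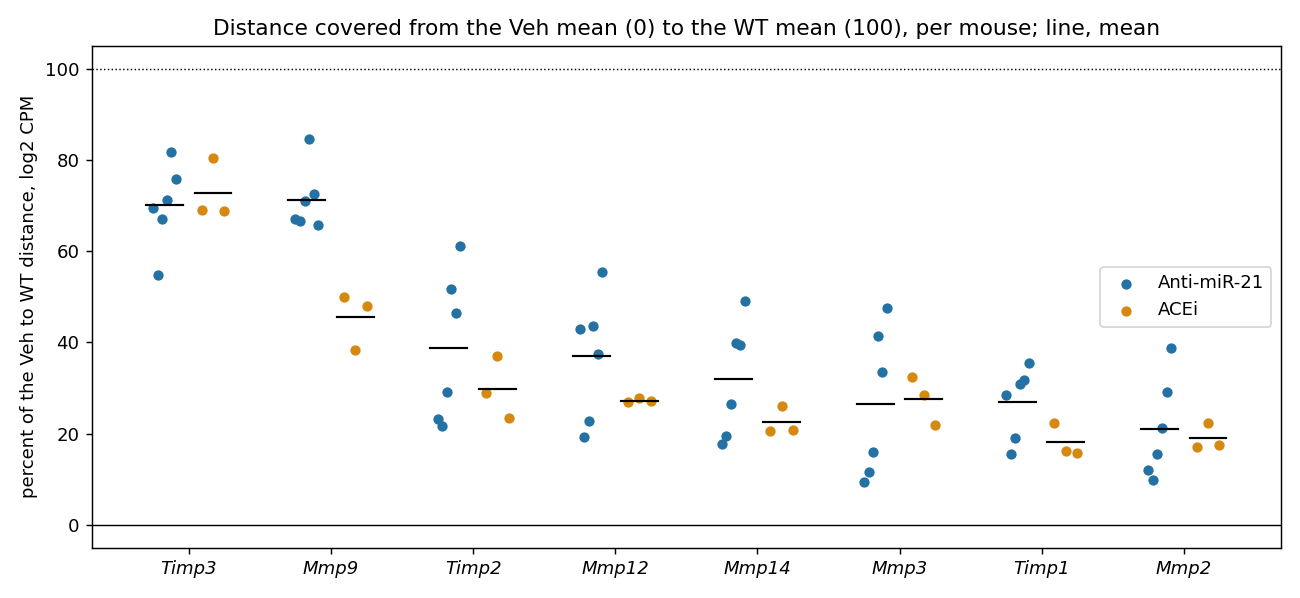
Position of each Anti-miR-21 and ACEi mouse on a percent scale of log2 CPM (Veh mean at 0, WT mean at 100), for 8 of the 10 genes; points are mice and lines are means. Mmp9 is the gene whose Anti-miR-21 mice (65.8 to 84.6%) and ACEi mice (38.4 to 50.0%) do not overlap, and Timp3 lies at means of 70.0% and 72.7%.

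The lademirsen target itself can be set against the members. The mature mouse miR-21 is shown with its seed, bases 2 to 8, in capitals, followed by the places in member 3′ ends that pair with that seed, in capitals. The microRNA comes from RefSeq (GRCm38.p6) and the 3′ ends from GENCODE M21 on GRCm38, with the longest 3′ end of each gene searched.
mmu-miR-21a-5p, chr11:86584120-86584141, minus strand: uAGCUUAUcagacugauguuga
Timp3, chr10:86348216-86348245, plus strand: ttgagctttcaATAAGCTAtagctttgttt
Timp2, chr11:118302328-118302357, minus strand: cgtcttaaaaaATAAGCTgtcccaaggaca
Reck, chr4:43944396-43944425, plus strand: tacagtttgaaATAAGCTAttaatgtaata

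Timp3 and Timp2 were the 2 members with the seed match ATAAGCT, which in Timp3 was followed by A and so extended to 8 bases. Of the other inhibitors, Reck, a membrane-anchored MMP inhibitor, and Timp4 were searched as well. Reck also held the 8-base match, and Timp4 held no match. A2m, Pzp and Tfpi2 were not searched. The 7-base match was in 7.18% of the 21010 genes searched and the 8-base match in 2.1%. The 3 genes with a match did not share a direction. With Anti-miR-21 compared to Veh, Timp3 rose (log2 0.96), whereas Timp2 (−0.83) and Reck (−0.50 ± 0.12, adjusted p = 0.00132, edgeR) fell. With ACEi compared to Veh they stood at 1.0, −0.67 and −0.48. A seed match is a description of letters, and neither pairing nor the level of mature miR-21 was measured in these libraries.

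Markers of several cell types differed between Veh and WT beside the members. All 6 macrophage markers (Adgre1, Csf1r, Cd68, C1qa, C1qb and Mrc1) rose in Veh compared to WT, with summed levels of 139.5 to 153 CPM in WT, 816 to 998 in Veh, 341 to 517 in Anti-miR-21 and 449 to 532 CPM in ACEi mice. All 5 fibroblast markers (Pdgfra, Pdgfrb, Dcn, Lum and Dpt) rose as well, from 78.5 to 179.8 CPM in WT to 437 to 579 in Veh, with 274 to 465 in Anti-miR-21 and 332 to 372 CPM in ACEi mice. All 5 tubule injury markers (Havcr1, Lcn2, Krt20, Vcam1 and Sox9) rose, from 23.2 to 35.4 CPM in WT to 835 to 1352 CPM in Veh, with 268 to 555 CPM in Anti-miR-21 and 536 to 624 CPM in ACEi mice. Of these 5, 4 were called lower than in Veh with Anti-miR-21 and 1 with ACEi. Of the fibroblast markers 4 and 1 were called lower, and of the macrophage markers 6 and 6. Over all genes tested, 30.5% were called lower with Anti-miR-21 and 19.1% with ACEi. All 5 T cell markers (Cd3e, Cd3d, Cd3g, Trac and Lck) rose too, from 2.54 to 7.03 CPM in WT to 13.2 to 38.5 CPM in Veh. They stood at 10.5 to 18.8 CPM in Anti-miR-21 and 14.3 to 24.1 CPM in ACEi mice, with 4 and 0 called lower than in Veh. No WT mouse held more than 8 Cd3d or 9 Cd3e counts, and WT mice held 3 to 12 Cd3g counts. These genes passed the filter through the Col4a3-/- groups, which set their direction. Krt20 of the tubule injury markers did so too, at 0 to 0.572 CPM in WT mice. All 6 proximal tubule markers fell, from 12312 to 15849 CPM down to 1346 to 3869 CPM, and stood at 6931 to 11390.1 CPM with Anti-miR-21 and 7067 to 9327 CPM with ACEi. None of the macrophage, adipocyte or neutrophil markers was at 0 in every mouse. The share of these cells in the members' changes was not tested.

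Ratios of members to summed markers in the same mouse place the 2 movements beside each other. Mmp12 per 1000 CPM of macrophage markers had a median of 14.6 in WT and 60.1 in Veh mice, and of 39.2 with Anti-miR-21 and 46.6 with ACEi. Mmp14 per 1000 CPM of fibroblast markers was 50.2 in WT, 239 in Veh, 133 in Anti-miR-21 and 182 in ACEi mice, and Mmp2 was 48.2, 260.0, 193 and 204.8. Timp1 per 1000 CPM of tubule injury markers was 21.3, 93.1, 59.1 and 69.3. For these 4 ratios, as for the CPM values, WT and Veh mice did not overlap. Timp3 per 1000 CPM of proximal tubule markers went the other way from its own level, with medians of 156 in WT, 359 in Veh, 193 in Anti-miR-21 and 216 in ACEi mice, so that its decline was smaller than that of the proximal tubule markers.

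Within groups, several of the induced members varied together. Over the 20 mice, with each group's mean removed from log2 CPM, Pearson's r was 0.89 for Timp2 with Mmp2, 0.89 for Timp2 with Mmp14 and 0.83 for Mmp14 with Mmp2. Mmp12 stood at 0.83 with Timp2, 0.80 with Mmp14 and 0.77 with Mmp2, and Mmp3 at 0.71 with Timp2 and 0.70 with Mmp2, while Timp3 was inversely related to Mmp7 (−0.73) and to Timp1 (−0.51). These are descriptions over mice that share library composition and scaling. By the same measure the protein-coding genes most like each member were Setd7 (0.98) for Mmp14, Ptprs (0.93) and Pxdn (0.91) for Mmp2, Cd22 (0.97) and Tbc1d2b (0.94) for Timp2, and Maoa (0.93) and Ick (0.91) for Mmp12. For Mmp3 they were Siglecg (0.91) and Lyz2 (0.90), for Timp1 Nde1 (0.88) and P2ry6 (0.85), for Mmp7 Mex3a (0.85) and Trim68 (0.83), for Mmp13 Tmem204 (0.79) and Slc39a10 (0.78), and for Mmp9 Sgk1 (0.77) and Crispld2 (0.76). Timp3 had Dnajc13 (0.96) and Hspa9 (0.95).

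Beyond the 10 genes, 11 of 16 other MMPs passed the filter and were called higher in Veh than in WT, as were 39% of all genes. For Mmp10, Mmp24 and Mmp27, with 0 or 1 WT counts, the filter itself set that direction. It also did so for Mmp8 and Mmp25, which reached at most 0.123 and 0.178 CPM in a WT mouse. With Anti-miR-21, 7 of the 11 fell, and with ACEi 6 fell, where 30.5% and 19.1% of all genes were called lower. Mmp10, Mmp24 and Mmp27 had the largest differences on the fitted scale. Mmp24, a membrane-type MMP, had 0 WT counts and 323 Veh counts, which made it at least 60.4-fold higher with 3 counts taken as the floor over the group. Its exons share 637 of 4683 bases with BC029722 on the opposite strand. Mmp27 had 0 and 278 counts and was at least 52.0-fold higher. Mmp10, stromelysin-2, had 1 and 293 counts, a ratio of 164 (95% interval 29.3 to 6515). With Anti-miR-21 compared to Veh, Mmp24 (−1.27, adjusted p = 0.00201, edgeR) and Mmp10 (−1.12, adjusted p = 0.0126, edgeR) fell. Mmp27 did so with ACEi (−1.35, adjusted p = 0.0301, edgeR).

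The other inhibitors did not move as a group. In Veh compared to WT, 1 of 5 was higher and 2 lower, where 39% of all genes were called higher and 34% lower. Pzp, a broad protease-trapping relative of alpha-2-macroglobulin, fell from 159 to 8.65 CPM (log2 −4.21 ± 0.59, adjusted p = 1.77e-06, edgeR) and was higher than in Veh with both treatments (3.19 and 3.02). Reck rose from 7.43 to 14.2 CPM (log2 0.94 ± 0.13, adjusted p = 1.82e-06, edgeR), and Tfpi2, a Kunitz-type inhibitor, differed by −0.36 ± 0.14 (adjusted p = 0.0265, edgeR). Among 11 tested activators and receptors, 5 rose and 5 fell, beside the same shares of all genes. Cd44, a hyaluronan receptor that docks MMP-9 at the cell surface, rose (log2 5.16 ± 0.23, adjusted p = 7.53e-13, edgeR), and the brush border meprins Mep1b (−4.14 ± 0.55, adjusted p = 9.19e-07, edgeR) and Mep1a (−2.41 ± 0.19, adjusted p = 4.97e-10, edgeR) fell. With Anti-miR-21 compared to Veh these moved back by −1.09, 3.13 and 1.86, and with ACEi by −0.61, 2.52 and 1.5, all called.

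Of 14 ADAMTS genes tested, 10 rose and 1 fell in Veh compared to WT. Beside these and the ADAM and substrate counts below, 39% of all genes were called higher and 34% lower. With Anti-miR-21, 10 ADAMTS genes fell, and with ACEi 7 fell, where 30.5% and 19.1% of all genes were called lower. Adamts12 had at most 6 counts in any WT mouse and passed the filter through the Col4a3-/- groups. Adamts17, with 6 to 15 counts in WT mice, did so too, and its adjusted p is not given. Its fitted difference, counted among the rises, was 2.92 ± 0.44 on the log2 scale. Adamts4, an aggrecanase, rose by 3.16 ± 0.24 and Adamts2, the procollagen I N-proteinase, by 3.15 ± 0.21 (adjusted p = 3.93e-10 and 6.01e-11, edgeR). Of 8 ADAM genes, 7 rose and 1 fell, led by Adam8 (4.23 ± 0.23), Adam19 (2.96 ± 0.19) and Adam12 (2.89 ± 0.29). Adam12 fell with Anti-miR-21 (−1.74 ± 0.25, adjusted p = 8.02e-06, edgeR), while with ACEi it differed from Veh by −0.51 ± 0.30 (adjusted p = 0.190, edgeR). Its difference between Anti-miR-21 and ACEi mice, −1.23 ± 0.30, was not called (adjusted p = 0.0580, edgeR). Of 14 substrate genes, 13 rose and 1 fell. The fibrillar collagens Col3a1 and Col1a1 rose by 4.59 ± 0.30 and 4.36 ± 0.24 and osteopontin, Spp1, by 4.31 ± 0.20, near the range of Mmp2, Mmp14 and Mmp12. With Anti-miR-21 they fell by 2.25, 2.07 and 1.09, and with ACEi by 1.31, 1.17 and 0.83, all called.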

How the data were processed

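RNA was read as 100 bp paired-end reads. The authors mapped them to GRCm38 in OmicSoft software and deposited a table of estimated counts per gene, of which 29.1% of values above 0 were not whole. The authors also deposited a table of FPKM per gene. The deposited library table gives a count of alignments per library, from 70004591 to 73294858. In the FPKM and library tables, 3 columns matched no sample given and were not used. Whether counting used the strand is not given in the sources used here, nor is the length behind the FPKM of Timp1. Estimated counts were rounded to whole numbers. Genes were kept by filterByExpr (minimum count 10, total 15), scaled by TMM and fitted over all 4 groups with edgeR 4.0.16 (quasi-likelihood test, two-sided, R 4.3.3). P-values were adjusted by Benjamini-Hochberg over all genes tested, with a threshold of 0.05. Log2 CPM for correlations and distances used a prior count of 2. The labels name separate mice, so n counts animals.

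The alternatives were other scalings, filters, flow cell terms, within-flow-cell fits, leaving out each mouse, DESeq2 1.42.0, and limma 3.58.1 on log2(FPKM + 1) and log2(FPKM + 0.1). Leaving out the mice high in adipocyte markers and the per-kilobase shares were added after seeing the data. The fitting script was tested on simulated data. Promoters and miR-21 came from RefSeq tables of GRCm38.p6 and 3′ ends from GENCODE M21. Ratios to 1 to 3 counts have exact 95% intervals, and a fold against 0 counts used a floor of 3 counts over the group. Intervals and floors cover counting error only. The members and the gene lists were chosen with earlier results of these data known. All 10 members were named, with up to 3 called genes of each other list that changed most in Veh compared to WT and the 2 genes most like each member. A gene that this rule also named is not reported here. Single neutrophil markers and overlapping genes were named after their values were seen. Figures were drawn with Python 3.11.15 and matplotlib 3.10.9.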

Additional observations from a re-analysis of the deposited data

Results flagged for a closer look

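Mmp13 stood apart in Anti-miR-21 mouse A15, at 2.29 CPM, where the next highest mouse of that group held 1.14 CPM and the gap took 0.663 of the group's whole range. Of 30 sets of values tested this way (10 genes in the 3 groups of at least 4 mice) this was the 1 that passed, and chance passes about 1 in 20.

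Mmp9 was called as different between the treatments, by a call near its threshold. The log2 difference between Anti-miR-21 and ACEi mice was −0.94 (adjusted p = 0.0406, edgeR's quasi-likelihood test). Leaving out any of the 9 mice compared except A8 took the adjusted p to between 0.0531 and 0.190. With flow cell as a term it was 0.0521 (edgeR).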

How the results depend on the processing

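Over the 10 genes and 6 comparisons, 1243 alternative values kept their direction and their side of the threshold, 41 kept the direction but lost the call, and 18 changed sign. The number of members called was within 1.5 times its reported value in all alternatives for Veh compared to WT, Anti-miR-21 compared to Veh and both comparisons with WT. For ACEi compared to Veh it was 4 within flow cell B, where 2 ACEi mice remained. For Anti-miR-21 compared to ACEi it was 0 with library totals alone, no filter, flow cell as a term, limma on log2(FPKM + 1) or log2(FPKM + 0.1), and without the mice high in adipocyte markers, and 0 to 1 when each mouse was left out. In that comparison Mmp9 was called by DESeq2 as well (adjusted p = 0.00281), and its adjusted p was 0.0528 with no filter. Sign changes occurred at differences near 0. For Mmp2 in Anti-miR-21 compared to ACEi the difference ran from −0.134 to 0.0856 as each mouse was left out, and was above 0 without A15, A22, A11 or A23. For Mmp3 it was −0.0170 with limma on log2(FPKM + 0.1). For Timp3 it was 0.0223 once the flow cell entered the fit and ran from −0.0695 to 0.0211 as each mouse was left out, above 0 without A8 or A13. For Mmp13 in Anti-miR-21 compared to WT it was 0.186 with library totals alone, 0.0474 and 0.141 with limma at pseudocounts of 1 and 0.1 and 0.108 without the mice high in adipocyte markers. It ran from −0.392 to 0.106 as each mouse was left out, and was above 0 without A6, A14, A17, A10, A12 or A22. The cause was not tested. With at least 10 counts required in every mouse 7 members were tested, and Mmp3, Mmp7 and Timp1 had no value there. Anti-miR-21 and ACEi could not be compared within flow cells, since A held 1 ACEi mouse and B 1 Anti-miR-21 mouse. No paired analysis was possible because the labels give each mouse its own number and none is shared between groups.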
